A study of Homo sapiens with 6 samples.

Results

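The genes examined encode the subunits of RNA polymerases I, II and III in HGC27 cells, a human gastric cancer line. They were taken as every protein-coding gene of the deposited table whose current symbol starts with POLR1, POLR2 or POLR3, which gave 34 gene identifiers (33 symbols, since POLR2J3 has 2 identifiers) of 58735. A further 14 identifiers with such symbols belong to other gene types and were left out. The rule also leaves out subunits named otherwise, such as CRCP of RNA polymerase III. RNA was sequenced from cells given ARV-825 for 48 h (n = 3), labelled ARV125nM for the dose in nM, and from DMSO control cells (0 nM, n = 3). ARV-825 tethers the BET bromodomain proteins to the ubiquitin ligase receptor cereblon, so that they are degraded. The labels call the controls untreated and give them no time, where the study's methods name DMSO. Whether the 3 samples of a group were separate cultures is not said, so the p-values cover the spread among them and that spread may be technical.

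RNA polymerase I makes the large ribosomal RNA precursor in the nucleolus, RNA polymerase II makes messenger RNA, and RNA polymerase III makes transfer RNA, 5S ribosomal RNA and other short RNAs. Each enzyme has its own pair of large catalytic subunits. Around them sit smaller subunits, of which some are used by a single enzyme, some by polymerases I and III, and some by all 3. The members fall by this known composition into 6 genes of polymerase I alone, 2 genes of polymerases I and III, 5 genes of all 3 polymerases, 7 genes of polymerase II alone and 10 genes of polymerase III alone. The remaining 4 identifiers are POLR2J2 and both POLR2J3 identifiers, which are copies of POLR2J, and POLR2M, which encodes a protein that associates with polymerase II. In growing cancer cells, demand for ribosomal and transfer RNA is high, and polymerases I and III are known to respond to the transcription factor MYC.

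The values are FPKM, in which fragments are divided by exon length in kilobases and by a scale that the authors set for each library. Fragments assigned to genes numbered 14821971 to 15201942 in ARV-825 libraries and 16626609 to 19145661 in DMSO libraries. On the authors' scale, 1 fragment on 1 kb of exon was worth 0.0665 to 0.0686 FPKM with ARV-825 and 0.0495 to 0.0581 FPKM with DMSO. Mitochondrial genes held 9.84% to 12.0% of fragments in ARV-825 libraries and 5.62% to 6.24% in DMSO libraries. Replicate 1 of ARV-825 was unlike the other replicates of its group. A chi-square statistic per degree of freedom, which is 1 for pure counting noise, was 6.68 and 6.02 for the pairs with replicate 1 and 1.62 for the pair without it, and 1.76 to 2.09 for DMSO pairs. Of the cell type markers, the epithelial EPCAM, CDH1, KRT8, KRT18 and KRT19 averaged at most 0.602 FPKM with ARV-825 and at most 0.0274 FPKM with DMSO, although gastric cancers arise from epithelium. The mesenchymal marker VIM stood at 247 FPKM with ARV-825 and 269 FPKM with DMSO, CDH2 at 0 FPKM with ARV-825 and 0.0574 FPKM with DMSO. The leukocyte marker PTPRC, the macrophage marker CD68 and the endothelial marker PECAM1 averaged at most 0.0466 FPKM with ARV-825 and at most 0.0419 FPKM with DMSO, while the collagen gene COL1A1, a fibroblast marker, fell to 27.2 FPKM with ARV-825, against 141 FPKM with DMSO. The part of these differences in the results below was not tested.

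The subunit genes did not move as 1 group. Every gene of polymerase I alone fell in ARV-825 cells, most genes of polymerase III alone fell, and the catalytic genes POLR2A and POLR2B of polymerase II rose on FPKM, as did the shared subunit gene POLR2L. Of the 34 identifiers, 32 passed the filter on low values (a mean of at least 1 FPKM over the 6 libraries), and POLR2J2 and POLR2J3 ENSG00000285437 did not. At an adjusted p under 0.05 (limma on log2(FPKM + 1), Benjamini-Hochberg over the 13442 genes tested), 20 of the 32 (62.5%) were lower, 4 (12.5%) were higher and 8 were not called, against 40.2% of all genes lower and 37.0% higher. Past a log2 fold change of 1 as well, 2 were lower (POLR3G and POLR1G) and 1 was higher (POLR2L), against 12.1% of all genes lower and 8.81% higher. POLR1G passed the filter only through its DMSO values, so that its calls follow in part from the filter. Every ARV-825 library lay below every DMSO library for 20 members and above it for 5, against 41.6% and 38.5% of all genes. The median log2 fold change of the 32 members was −0.32, and that of all genes tested was −0.02. The members are protein-coding by rule, while all genes include other types. With the 10590 protein-coding genes fitted alone, 47.1% were lower and 36.2% higher, with a median of −0.09. In bulk RNA, fewer cells that express a gene and less of its RNA per cell cannot be told apart.

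**Figure D1:**
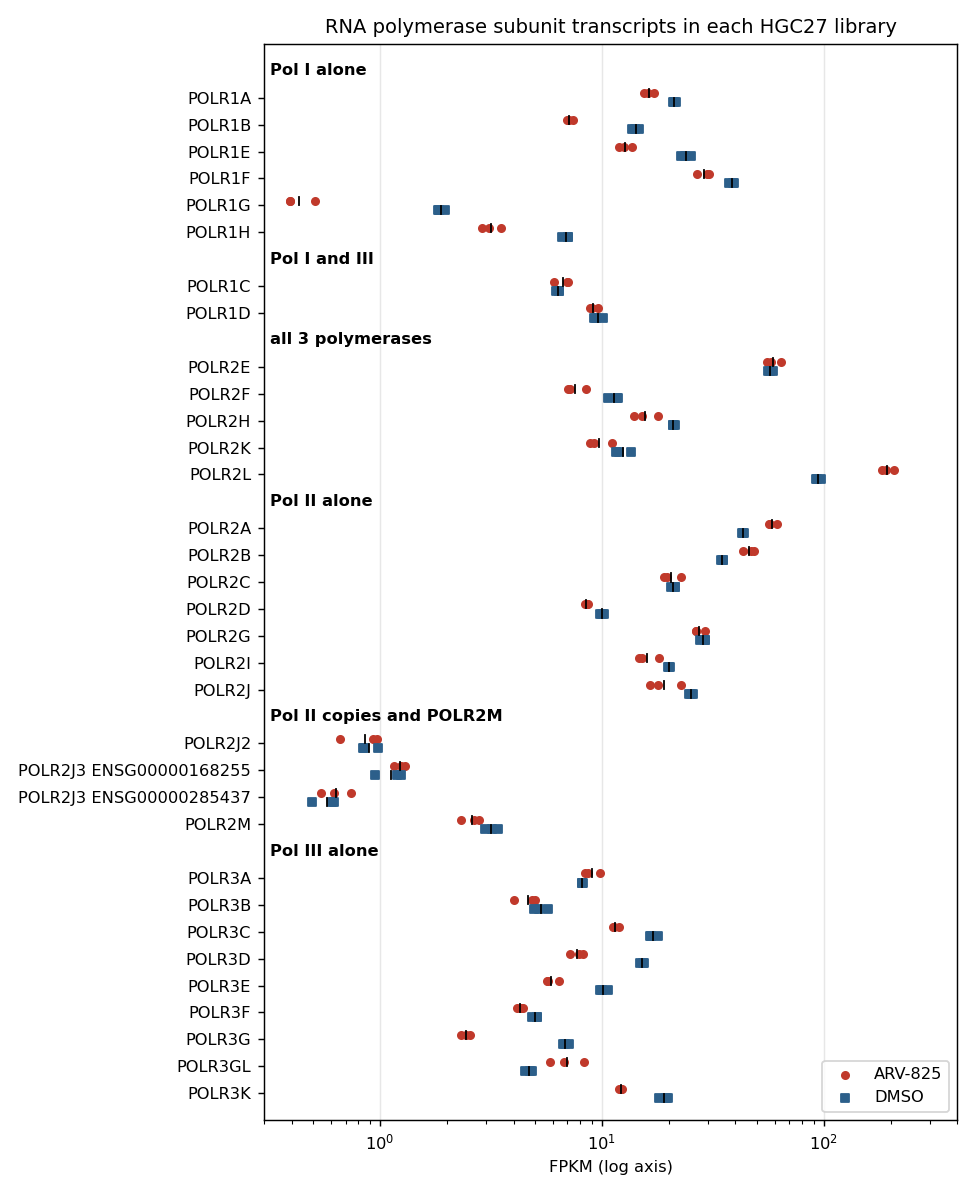
FPKM (log axis) of 33 subunit gene identifiers in the 3 ARV-825 libraries (red circles) and the 3 DMSO libraries (blue squares), with the mean of each group as a black line and genes grouped by polymerase. The groups are apart for all 6 genes of polymerase I alone, with ARV-825 lower, while POLR2L stands at 183 to 207 FPKM with ARV-825 and 92.6 to 96.9 FPKM with DMSO.

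POLR1A and POLR1B encode the catalytic core of polymerase I. POLR1A had 17.2, 16.1 and 15.5 FPKM in ARV-825 libraries, against 20.9, 21.5 and 21.2 FPKM in DMSO libraries. POLR1B had 7.12, 7.38 and 6.93 FPKM in ARV-825 libraries, against 14.1, 13.7 and 14.7 FPKM in DMSO libraries. Both genes were lower in every ARV-825 library, but by unequal amounts: the log2 fold change was −0.36 (SE 0.0450, adjusted p = 0.000255) for POLR1A and −0.90 (SE 0.0436, adjusted p = 2.56e-06) for POLR1B. POLR1E and POLR1G encode a pair of subunits that dimerize on the enzyme and act in initiation and elongation. POLR1E averaged 12.7 ± 0.916 FPKM with ARV-825 and 23.9 ± 1.15 FPKM with DMSO (SD, n = 3 each), with a log2 fold change of −0.86 (adjusted p = 1.42e-05). POLR1F, whose product forms the stalk that contacts the initiation factor RRN3, had 26.8, 30.4 and 29.8 FPKM in ARV-825 libraries, against 39.4, 37.4 and 39.0 FPKM in DMSO libraries, a log2 fold change of −0.40 (adjusted p = 0.000380). POLR1H encodes the small subunit that helps to cleave RNA in a stalled enzyme. It had 3.51, 2.88 and 3.11 FPKM in ARV-825 libraries, against 6.61, 7.01 and 7.00 FPKM in DMSO libraries, with a log2 fold change of −0.92 (adjusted p = 1.50e-05).

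POLR1G (GRCh38 chromosome 19, 45406209 to 45410766, plus strand) was the lowest of the subunit genes in ARV-825 cells. It had 0.393, 0.509 and 0.392 FPKM in ARV-825 libraries, against 1.83, 1.97 and 1.85 FPKM in DMSO libraries. These values rest on 21 to 28 fragments with ARV-825 and on 120 to 137 fragments with DMSO, and the gene passed the filter only through DMSO. The ARV-825 mean was 4.37-fold lower than the DMSO mean, where the log2 fold change after addition of 1 FPKM was −1.01 (SE 0.0804, adjusted p = 2.58e-05). That value sits at the threshold of 1: it was −0.94 with library medians made equal and −0.99 without ARV-825 replicate 1, without ARV-825 replicate 3 or without DMSO replicate 2. POLR1G shares 45.1% of its exon bases with exons on the opposite strand, nearly all of the DNA repair gene ERCC1, and the library kit is of a type that does not mark strand. ERCC1 averaged 6.05 ± 0.280 FPKM with ARV-825 and 6.08 ± 0.247 FPKM with DMSO, a log2 fold change of −0.01 (adjusted p = 0.916), and its part in the POLR1G values was not tested. POLR1H likewise shares 24.5% of its exon bases with the antisense gene POLR1HASP, which averaged 0.725 FPKM with ARV-825 and 0.529 FPKM with DMSO.

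Over the 6 genes of polymerase I alone the median log2 fold change was −0.88, with a range of −1.01 to −0.36. Without POLR1G, whose place among the genes tested rests on DMSO alone, the other 5 had a median of −0.86 and a range of −0.92 to −0.36. These 5 were also lower at an adjusted p under 0.05 in each of the 17 alternative settings run. With no filter on low values, POLR1G was at −1.01 (adjusted p = 0.000163). For all 6 genes, POLR1G included, the median less that of all genes tested was −0.86, and in the alternatives it ran between −0.93 and −0.79. The mean log2 level of the 6 genes was 3.06 ± 0.0312 with ARV-825 and 3.81 ± 0.0210 with DMSO (SD over the libraries of a group). Each of the 6 was lower in every ARV-825 library, so their mean was bound to separate the groups and adds no further result.

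POLR1C and POLR1D encode the subunits that polymerase I shares with polymerase III alone. Their products dimerize to form the platform on which polymerases I and III are assembled. POLR1C had 6.96, 7.07 and 6.09 FPKM in ARV-825 libraries, against 6.38, 6.44 and 6.19 FPKM in DMSO libraries. POLR1D had 8.80, 9.58 and 9.03 FPKM in ARV-825 libraries, against 9.45, 9.22 and 10.1 FPKM in DMSO libraries. The groups overlapped for both genes, and neither passed the test: the log2 fold change was 0.07 (SE 0.0593, adjusted p = 0.316) for POLR1C and −0.06 (SE 0.0501, adjusted p = 0.285) for POLR1D. On values rescaled so that every library has the same sum (TPM), both were lower, at −0.22 (adjusted p = 0.0237) for POLR1C and −0.37 (adjusted p = 0.00107) for POLR1D. That rescaling also moved the median of all genes to −0.31. POLR1D was also lower when scaled to the fragments in genes (−0.14, adjusted p = 0.0459) and by voom on recovered fragments (−0.16, adjusted p = 0.0143). POLR1C was higher without ARV-825 replicate 3 (0.13, adjusted p = 0.0453). POLR1C shares 18.2% of its exon bases with genes on the opposite strand, ENSG00000271754 and XPO5 among them, and their part in its values was not tested.

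**Figure D2:**
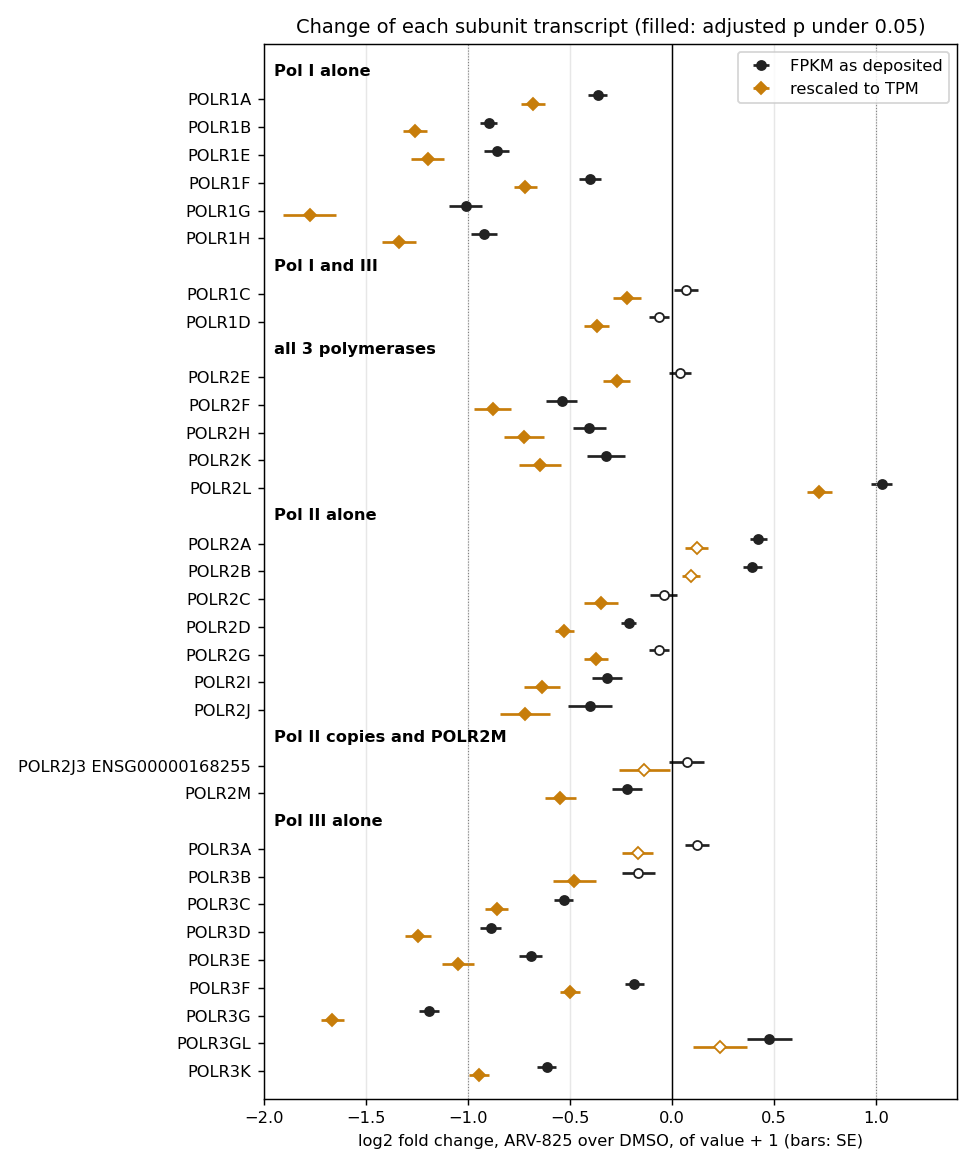
Log2 fold change (ARV-825 over DMSO, of value + 1) with its SE for 31 of the members tested, from the deposited FPKM (black circles) and after rescaling to TPM (orange diamonds); filled marks have an adjusted p under 0.05, and dotted lines mark a log2 fold change of 1 in either direction. The rescaling shifts all of these members to the left, so that POLR2A falls to 0.12 and loses its call, while the 6 genes of polymerase I alone stay called, at −0.68 or below.

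Polymerase III has 10 genes of its own among the members, with a median log2 fold change of −0.51 and a range of −1.19 to 0.48. Of these, 7 fell (70%), 1 rose (10%) and 2 did not pass the test, against 40.2% of all genes lower and 37.0% higher. The 2 that did not pass encode the catalytic core. POLR3A had 9.85, 8.68 and 8.41 FPKM in ARV-825 libraries, against 8.15, 8.10 and 8.21 FPKM in DMSO libraries. All 3 ARV-825 libraries were above DMSO, but the difference did not pass the test (log2 fold change 0.12, adjusted p = 0.0989). After rescaling to TPM the sign turned, to −0.17 (adjusted p = 0.0836). POLR3B had 5.00, 4.03 and 4.85 FPKM in ARV-825 libraries, against 5.21, 4.95 and 5.71 FPKM in DMSO libraries. The POLR3B groups overlapped through ARV-825 replicate 1, and the log2 fold change was −0.16 (adjusted p = 0.109), or −0.48 (adjusted p = 0.00472) after rescaling to TPM.

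The genes that fell encode smaller subunits of polymerase III. POLR3D and POLR3E encode a dimer that takes part in initiation and termination. POLR3D averaged 7.76 ± 0.515 FPKM with ARV-825 and 15.2 ± 0.306 FPKM with DMSO (log2 fold change −0.89, adjusted p = 5.87e-06). POLR3E averaged 5.92 ± 0.427 FPKM with ARV-825 and 10.2 ± 0.421 FPKM with DMSO (log2 fold change −0.69, adjusted p = 3.26e-05). POLR3K encodes the subunit for RNA cleavage and termination, the counterpart of POLR1H. It averaged 12.2 ± 0.218 FPKM with ARV-825 and 19.1 ± 1.01 FPKM with DMSO (log2 fold change −0.61, adjusted p = 1.99e-05). POLR3K shares 8.1% of its exon bases with SNRNP25 on the opposite strand. SNRNP25 had a log2 fold change of −0.20 (adjusted p = 0.00620), and its part in the POLR3K values was not tested.

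POLR3C, POLR3F and the product of either POLR3G or POLR3GL form a trimer that opens DNA at the promoter. POLR3C averaged 11.5 ± 0.370 FPKM with ARV-825 and 17.0 ± 0.791 FPKM with DMSO (log2 fold change −0.53, adjusted p = 4.17e-05). POLR3F averaged 4.30 ± 0.137 FPKM with ARV-825 and 5.02 ± 0.137 FPKM with DMSO, a smaller decrease (log2 fold change −0.18, adjusted p = 0.00800).

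The third member of that trimer is where the genes of polymerase III parted most. POLR3G and POLR3GL are paralogues that exclude each other from the enzyme, and POLR3G is known for its expression in stem cells and tumour cells, where POLR3GL is found in most tissues. POLR3G (chromosome 5, 90471748 to 90514553, plus strand) had 2.32, 2.45 and 2.55 FPKM in ARV-825 libraries, against 7.08, 6.82 and 6.66 FPKM in DMSO libraries. POLR3GL (chromosome 1, 145964702 to 145978848, plus strand) had 8.35, 5.84 and 6.76 FPKM in ARV-825 libraries, against 4.84, 4.49 and 4.74 FPKM in DMSO libraries. The groups were apart for both genes and in opposite directions, so that the more abundant paralogue was POLR3GL in each ARV-825 library and POLR3G in each DMSO library. The ARV-825 mean of POLR3G was 2.81-fold lower than its DMSO mean, and the log2 fold change was −1.19 (SE 0.0490, adjusted p = 1.33e-06), the largest decrease among the members on this scale. For POLR3GL the log2 fold change was 0.48 (SE 0.110, adjusted p = 0.00579), and ARV-825 replicate 1 was highest of the 3. After rescaling to TPM, POLR3G remained lower at −1.66, whereas POLR3GL lost its call at 0.24 (adjusted p = 0.142). POLR3GL was called higher in 16 of the 17 alternatives. POLR3GL values rest on 158 to 219 fragments with ARV-825 and 139 to 172 fragments with DMSO. POLR3GL shares 21.2% of its exon bases with ENSG00000280778 on the same strand, which averaged 0 FPKM with ARV-825 and 0.0177 FPKM with DMSO. POLR3G shares 6.47% of its exon bases with MBLAC2 on the opposite strand. MBLAC2 had a log2 fold change of −0.44 (adjusted p = 0.00109), and its part in the POLR3G values was not tested.

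A ratio of 2 genes within a library takes the library's scale out, and the ratio was compared for 6 pairs of counterparts. The log2 differences and the test, unless stated otherwise, are of FPKM with 1 added, which leaves part of the scale in. The ratio of POLR3G over POLR3GL was 0.278, 0.419 and 0.377 in ARV-825 libraries, against 1.46, 1.52 and 1.41 in DMSO libraries. On the log2 scale with 1 FPKM added, the difference was −1.67, and with nothing added it was −2.05. The ratio of the largest subunits, POLR1A over POLR2A, was 0.279, 0.282 and 0.275 in ARV-825 libraries, against 0.490, 0.498 and 0.485 in DMSO libraries, a log2 difference of −0.79. POLR1A was lower and POLR2A higher in every ARV-825 library, so that ratio was bound to be lower there. The difference was larger for the second-largest subunits: POLR1B over POLR2B averaged 0.155 ± 0.0105 with ARV-825 and 0.408 ± 0.0194 with DMSO, a log2 difference of −1.29 (−1.39 with nothing added). Polymerase III against polymerase II moved less. POLR3A over POLR2A averaged 0.154 ± 0.00559 with ARV-825 and 0.189 ± 0.00150 with DMSO (log2 difference −0.30), and POLR3B over POLR2B averaged 0.101 ± 0.0146 with ARV-825 and 0.152 ± 0.0128 with DMSO (log2 difference −0.56). Each of the 6 pairs, POLR2M over POLR2A included, reached an exact two-sided permutation p of 0.1 (0.1 also after Benjamini-Hochberg adjustment over the 6), which is the smallest that 3 against 3 libraries allow. For POLR3G over POLR3GL, POLR1A over POLR2A, POLR1B over POLR2B and POLR2M over POLR2A, both genes already separated the groups, in opposite directions. The ratios of those pairs had to separate as well, so that their p adds nothing.

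**Figure D3:**
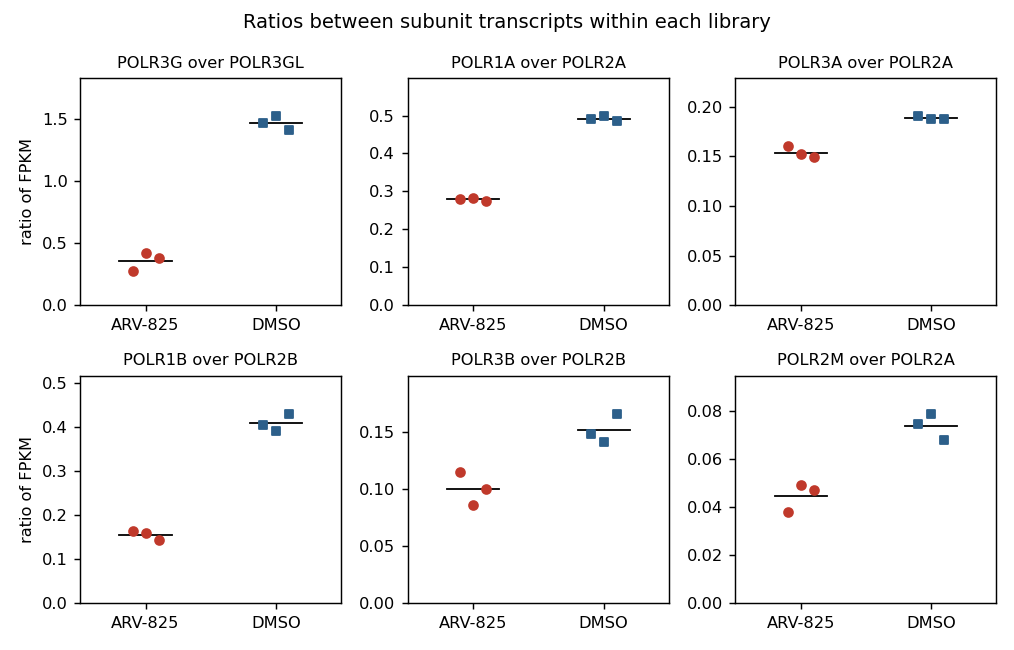
Ratio of FPKM between subunit genes within each library, for 6 pairs, in ARV-825 (red circles) and DMSO (blue squares), with the mean of each group as a line; every axis starts at 0. In each panel the ARV-825 libraries lie below the DMSO libraries, with POLR3G over POLR3GL at 0.278 to 0.419 with ARV-825 and at 1.41 to 1.52 with DMSO.

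The catalytic genes of polymerase II moved the other way. POLR2A encodes the largest subunit, with the repeat tail that kinases phosphorylate during transcription, and POLR2B its partner. POLR2A (chromosome 17, 7484366 to 7514616, plus strand) had 61.6, 57.1 and 56.3 FPKM in ARV-825 libraries, against 42.8, 43.1 and 43.7 FPKM in DMSO libraries. POLR2B had 43.4, 46.8 and 48.2 FPKM in ARV-825 libraries, against 35.1, 35.0 and 34.3 FPKM in DMSO libraries. Both were higher in every ARV-825 library, with log2 fold changes of 0.42 (SE 0.0418, adjusted p = 7.74e-05) for POLR2A and 0.40 (SE 0.0452, adjusted p = 0.000169) for POLR2B. Rescaled to TPM, they kept the sign and lost the call, at 0.12 (adjusted p = 0.0881) for POLR2A and 0.09 (adjusted p = 0.0823) for POLR2B. Each was called higher in 16 of the 17 alternatives. On TPM computed without mitochondrial genes, POLR2A was at 0.40 and POLR2B at 0.37. POLR2B shares 12.4% of its exon bases with NOA1 and IGFBP7 on the opposite strand, which rose by 0.47 and 0.38.

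None of the 5 smaller genes of polymerase II alone rose. POLR2C, which pairs with POLR2J to form the assembly platform, averaged 20.5 ± 1.98 FPKM with ARV-825 and 21.0 ± 0.528 FPKM with DMSO (log2 fold change −0.04, adjusted p = 0.609). POLR2D and POLR2G encode the stalk of the enzyme. POLR2D averaged 8.51 ± 0.133 FPKM with ARV-825 and 10.0 ± 0.232 FPKM with DMSO (log2 fold change −0.21, adjusted p = 0.00162). POLR2G averaged 27.4 ± 1.46 FPKM with ARV-825 and 28.6 ± 0.874 FPKM with DMSO (log2 fold change −0.06, adjusted p = 0.264), so that only POLR2D of the stalk pair passed this test. POLR2G was called lower in 4 of the 17 alternatives, TPM (−0.37) and scaling to the fragments in genes (−0.15) among them. POLR2D was lower in all 17. POLR2I, whose product acts in start site selection and RNA cleavage, averaged 15.9 ± 1.81 FPKM with ARV-825 and 20.1 ± 0.307 FPKM with DMSO (log2 fold change −0.32, adjusted p = 0.00616). POLR2I is uncertain, since 79.6% of its exon bases also lie in genes on the opposite strand, mainly ENSG00000279504 and TBCB. The gene ENSG00000279504 was listed at 0 in all 6 libraries, and TBCB averaged 41.3 FPKM with ARV-825 and 43.3 FPKM with DMSO. Over the 7 genes of polymerase II alone the median log2 fold change was −0.06, close to that of all genes, with 3 lower, 2 higher and 2 not called. The shares were 42.9% lower and 28.6% higher, against 40.2% and 37.0% of all genes.

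POLR2J had 22.8, 16.5 and 17.9 FPKM in ARV-825 libraries, against 25.3, 25.8 and 24.7 FPKM in DMSO libraries. Its log2 fold change was −0.40 (SE 0.108, adjusted p = 0.0121), with ARV-825 replicate 1 nearest to DMSO. The copies lay far lower. POLR2J2 had 0.664, 0.966 and 0.927 FPKM in ARV-825 libraries, against 0.837, 0.844 and 0.984 FPKM in DMSO libraries. POLR2J3 ENSG00000168255 had 1.16, 1.29 and 1.24 FPKM in ARV-825 libraries, against 1.19, 1.24 and 0.947 FPKM in DMSO libraries, and did not pass the test (log2 fold change 0.07, adjusted p = 0.461). The groups overlapped for every copy. POLR2J3 ENSG00000285437 had 0.620, 0.740 and 0.541 FPKM in ARV-825 libraries, against 0.496, 0.622 and 0.606 FPKM in DMSO libraries. All 4 identifiers are uncertain: of the 50-base stretches in their transcripts, the share also found in transcripts of other genes or identifiers was 36.9% for POLR2J, 97.6% for POLR2J2, 80.0% for POLR2J3 ENSG00000168255 and 45.3% for POLR2J3 ENSG00000285437. Summed over the 4, fragments numbered 590, 509 and 497 in ARV-825 libraries, against 777, 777 and 866 in DMSO libraries, and POLR2J held 66.2% to 76.4% of them with ARV-825 and 77.5% to 79.0% with DMSO. POLR2M had 2.33, 2.80 and 2.65 FPKM in ARV-825 libraries, against 3.19, 3.39 and 2.96 FPKM in DMSO libraries (log2 fold change −0.22, adjusted p = 0.0269). Its call was lost in 5 of the 17 alternatives, with the highest adjusted p at 0.0927. POLR2M shares 21.1% of its exon bases with GCOM1 on the same strand, which averaged 0 FPKM with ARV-825 and 0.0016 FPKM with DMSO.

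The 5 genes shared by all 3 polymerases had a median log2 fold change of −0.32 and ranged from −0.54 to 1.03, with 3 lower, 1 higher and 1 not called. The shares were 60% lower and 20% higher, against 40.2% and 37.0% of all genes. POLR2L (chromosome 11, 837356 to 842545, minus strand) encodes a small zinc-binding subunit beside the assembly platform of each enzyme. It was the most abundant member, at 207, 191 and 183 FPKM in ARV-825 libraries, against 92.6, 96.9 and 92.8 FPKM in DMSO libraries. Its log2 fold change was 1.03 (SE 0.0514, adjusted p = 2.89e-06), the largest increase among the members on this scale, and it was higher at an adjusted p under 0.05 in all 17 alternatives, at 0.72 to 1.09. Without ARV-825 replicate 1, the highest of the 3, it was at 0.98 and no longer passed a log2 fold change of 1. The same held on TPM (0.72), scaled to the fragments in genes (0.94) and with voom (0.95). POLR2L shares 22.5% of its exon bases with CD151 on the opposite strand. CD151 averaged 46.8 ± 4.62 FPKM with ARV-825 and 36.9 ± 0.218 FPKM with DMSO, a log2 fold change of 0.33 (adjusted p = 0.00329), and its part in the POLR2L values was not tested.

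POLR2K encodes another small zinc-binding subunit, and it fell where POLR2L rose. It had 11.1, 9.21 and 8.83 FPKM in ARV-825 libraries, against 12.0, 13.6 and 11.6 FPKM in DMSO libraries (log2 fold change −0.32, adjusted p = 0.0156). Its call was lost without ARV-825 replicate 2 (adjusted p = 0.0505) and without DMSO replicate 2 (adjusted p = 0.0537). POLR2F, whose product helps to hold the clamp of the enzymes, had 8.46, 7.18 and 7.01 FPKM in ARV-825 libraries, against 11.8, 11.7 and 10.7 FPKM in DMSO libraries (log2 fold change −0.54, adjusted p = 0.000501). POLR2H, a peripheral subunit, had 17.9, 15.2 and 14.0 FPKM in ARV-825 libraries, against 21.3, 20.8 and 20.9 FPKM in DMSO libraries (log2 fold change −0.40, adjusted p = 0.00311). POLR2E, a subunit of the jaw that grips downstream DNA, had 63.8, 55.4 and 58.1 FPKM in ARV-825 libraries, against 57.4, 58.8 and 56.0 FPKM in DMSO libraries. The POLR2E groups overlapped (log2 fold change 0.04, adjusted p = 0.535), and on TPM the sign turned, to −0.27 (adjusted p = 0.00779). The fall in POLR2F and the rise in POLR2L widened the span of these genes: the mean of the highest, POLR2L, was 25.6 times that of the lowest, POLR2F, with ARV-825 and 8.26 times with DMSO.

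MYC, the factor to which the study turned, was itself lower, at 85.8 ± 5.14 FPKM with ARV-825 and 158 ± 1.30 FPKM with DMSO (log2 fold change −0.88, adjusted p = 4.00e-06). Since MYC is known to bind the E-box CACGTG, promoters of the members were searched for it in RefSeq sequence of GRCh38.p14, which held 24 of the 33 symbols (250 bases before to 50 bases after the RefSeq start of the gene, both strands). E-boxes were present in 4 of the 24 (16.7%), namely POLR1G, POLR3A, POLR3C and POLR3E, against 8.78% of the 27305 genes with a promoter in the same table. In 3 of them the E-box lay wholly before the RefSeq start, and stretches of up to 30 bases around it are printed on the gene's strand to set the same motif beside unlike responses, with the E-box in capitals.
POLR1G, chr19:45406620-45406643, plus strand: cccctttggatcCACGTGgtctgc
POLR3A, chr10:78029533-78029562, minus strand: agaggaagcggaCACGTGggacactctacg
POLR3C, chr1:145823992-145824021, plus strand: gcccgcgtcggtCACGTGagttggccaggc
The E-box began 12 bases before the RefSeq start in POLR1G, 35 before it in POLR3A and 196 before it in POLR3C. In GENCODE release 29, from which the gene spans are given, genes can start elsewhere: all 24 bases shown for POLR1G and 13 of the 30 for POLR3A lie inside that gene's model, and 0 of the 30 for POLR3C. Of these genes, POLR1G and POLR3C fell and POLR3A did not pass the test, at log2 fold changes of −1.01, −0.53 and 0.12. POLR1B and POLR1H, which fell by 0.90 and 0.92 on the log2 scale, had no CACGTG in these windows, and no promoter of POLR3G was in the table. The ETS core CCGGAAG was present in 9 of the 24 (37.5%), against 12.2% of all genes. Members with it included POLR1B, which fell, and POLR1C, which did not pass the test. CCAAT was present in 6 (25.0%), against 39.7% of all genes, and TATAAA in POLR2M alone (4.17%), against 14.0%. The shares of all genes, for the E-box too, come from every gene with a promoter, with no limit to protein-coding or expressed genes. They are therefore shares of a set unlike the members. A match is a description of the sequence and not a binding site.

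Factors that work with each polymerase were counted from lists of known composition, to be read against 40.2% of all genes lower and 37.0% higher on FPKM, and 53.7% lower and 23.6% higher on TPM. With protein-coding genes fitted alone, 47.1% were lower and 36.2% higher on FPKM. UBTF, TTF1, TAF1A and TAF1D led the 8 polymerase I factors, which place and terminate the enzyme on ribosomal genes: 5 were lower, 1 higher and 2 not called, with a median log2 fold change of −0.25. UBTF, which coats active ribosomal genes, averaged 22.2 ± 0.683 FPKM with ARV-825 and 41.0 ± 0.711 FPKM with DMSO (log2 fold change −0.86, adjusted p = 1.45e-06). The termination factor TTF1 fell by 0.53, and TAF1A and TAF1D of the promoter selectivity complex fell by 0.42 and 0.32 on the log2 scale. The 1 higher gene was RRN3, named here after its value was seen, at 0.16 (adjusted p = 0.0124). RRN3 turned to −0.14 (adjusted p = 0.0397) on TPM, where all 8 were lower, and lost its call in 4 other alternatives, without DMSO replicate 2 and without DMSO replicate 3 among them (adjusted p = 0.0526 and 0.0520).

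The 16 tested general factors of polymerase II (of 17) moved the other way on FPKM, with 11 higher, 1 lower and 4 not called and a median of 0.22, but on TPM the split was 5 higher and 5 lower, with a median of −0.07. GTF2B, which positions the enzyme at the start site, averaged 15.4 ± 1.53 FPKM with ARV-825 and 6.64 ± 0.527 FPKM with DMSO (log2 fold change 1.10, adjusted p = 1.75e-05). GTF2E1, CCNH and GTF2H5, of the factors that open the promoter, rose by 0.70, 0.66 and 0.64 (adjusted p = 4.67e-05, 1.45e-05 and 0.000122). The 1 lower gene, GTF2E2, named after its value was seen, was at −0.19. Of 10 kinases and phosphatases of the POLR2A tail, 6 were higher, 3 lower and 1 not called, with a median of 0.29 on FPKM and 0.05 on TPM, where all genes had medians of −0.02 and −0.31. The kinases CDK9 and CDK7 rose by 0.68 and 0.58, and the small phosphatase genes CTDSP1 and CTDSPL fell by 1.33 and 1.05 on the log2 scale.

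Of the 16 polymerase III factors, 8 were lower, 6 higher and 2 not called, with a median of −0.12 (9 lower and 2 higher on TPM, with a median of −0.44), with shares of lower genes near those of all genes on both scales. GTF3C6, a subunit of the factor that binds transfer RNA genes, averaged 5.83 ± 0.844 FPKM with ARV-825 and 35.9 ± 2.26 FPKM with DMSO (log2 fold change −2.44, adjusted p = 9.52e-07). GTF3A, the factor specific to 5S ribosomal RNA genes, averaged 17.2 ± 0.853 FPKM with ARV-825 and 43.4 ± 0.282 FPKM with DMSO (log2 fold change −1.29, adjusted p = 5.61e-07). SNAPC2 and SNAPC5, of the complex for small nuclear RNA genes, fell by 0.63 and 0.54. Other subunits of the same complexes rose on FPKM, named after their values were seen: SNAPC4, SNAPC3 and SNAPC1 by 0.54, 0.40 and 0.24 (adjusted p = 3.56e-05, 0.000893 and 0.0165), and GTF3C1, GTF3C3 and GTF3C4 by 0.53, 0.27 and 0.20 (adjusted p = 0.000116, 0.00185 and 0.00166). On TPM, SNAPC4 and GTF3C1 alone of these 6 stayed higher, at 0.27 and 0.24. Among 14 assembly and import factors, 6 were lower, 2 higher and 6 not called, with a median of −0.19 (11 lower and 2 higher on TPM, with a median of −0.51), on FPKM a share lower near that of all genes. The chaperone genes PFDN2 and URI1 fell by 0.62 and 0.57, and GPN2 and RPAP2, known for polymerase II assembly and import, rose by 0.51 and 0.41. From the same list, GPN1 and RPAP3, named after their values were seen, fell by 0.38 and 0.24 (adjusted p = 0.00104 and 0.0149), and GPN3 and RPAP1 were not called. CDK7 and RPAP2 each stand on 2 lists. The mitochondrial polymerase gene POLRMT averaged 27.9 ± 1.87 FPKM with ARV-825 and 35.3 ± 1.85 FPKM with DMSO (log2 fold change −0.33, adjusted p = 0.00192).

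The RNAs that polymerase III makes are poorly seen in these libraries, and the kit is of a type that enriches polyadenylated RNA. Of 13 listed RNAs made by polymerase III, 12 were in the table, 7 of them listed at 0 in all 6 libraries, and RN7SL2 alone passed the filter. RN7SL2, an RNA of the signal recognition particle, had 1529, 1164 and 840 FPKM in ARV-825 libraries, against 1277, 1557 and 1370 FPKM in DMSO libraries, and the groups overlapped (log2 fold change −0.29, adjusted p = 0.237). On TPM it was lower, at −0.60 (adjusted p = 0.0349).

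**Figure D4:**
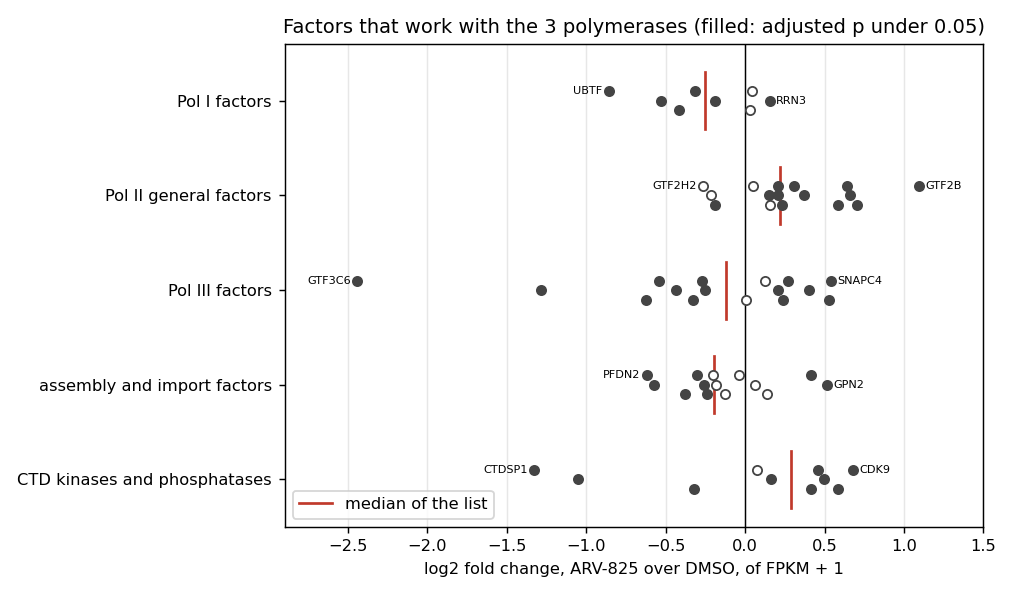
Log2 fold change (ARV-825 over DMSO, of FPKM + 1) of each tested gene on 5 lists of factors that work with the polymerases, with the list's median as a red line; filled points have an adjusted p under 0.05, and the lowest and highest gene of each list are named. Polymerase I factors lie mostly left of 0 (median −0.25) and polymerase II general factors mostly right of it (median 0.22, or −0.07 on TPM), and GTF3C6 stands far to the left at −2.44.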

How the data were processed

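The authors deposited 1 table of FPKM values per gene for 6 libraries, 3 of cells given 125 nM ARV-825 and 3 of DMSO controls. HISAT2 2.0.5 and mm10 stand in the submitters' processing notes, although all 58735 identifiers are human and occur in GENCODE release 29, which gave exon lengths and positions on GRCh38. For the counting tool and reads that fit several genes, the sources used here give nothing. FPKM times exon length gave whole fragments for 100% of values (within 0.05). Against the fragments in genes, the scale by which FPKM were divided was smaller in each ARV-825 library and larger in each DMSO library. On log2(FPKM + 1), limma 3.58.1 in R 4.3.3 (lmFit, then eBayes with a trend) set ARV-825 against DMSO over the 13442 genes with a mean of at least 1 FPKM, with Benjamini-Hochberg adjustment, and was tested on simulated data. Calls are at an adjusted p under 0.05, and the fold change is smaller than that of FPKM for genes with low values.

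The members, classes, pairs and factor lists were chosen with earlier results of these data known. Of the members, 1 is counted but not reported here, and the others are given by name, with values in every library for the largest subunits, the shared subunits, the paralogues and copies, and the 4 largest changes each way. Of each factor list, the text names by rule up to 4 called genes, those that changed most. Genes named beyond these were added after their values were seen, and GPN3 and RPAP1 among them were not called. Alternatives covered the pseudocount, the filter, library scaling, voom on recovered fragments, the variance trend, protein-coding genes alone, the replicate number as a block, and each replicate left out.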

Additional observations from a re-analysis of the deposited data

How the results depend on the processing

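Of the 32 members tested, 19 kept their direction and their side of the threshold in all 17 alternatives, and 13 changed in at least 1. Library scaling moved the most. Rescaled to TPM, 7214 of all genes were lower and 3176 higher, against 5405 and 4977 on FPKM, and the median of all genes went to −0.31. Among members 1 was then higher, 5 were not called, and 7 lower and 0 higher passed both thresholds. The medians on TPM were −0.64 for all members, −1.23 for polymerase I alone, −0.29 for polymerases I and III, −0.65 for all 3 polymerases, −0.37 for polymerase II alone and −0.84 for polymerase III alone. The sign turned on TPM for POLR1C (−0.22), POLR2E (−0.27), POLR2J3 ENSG00000168255 (−0.14) and POLR3A (−0.17), and the calls of POLR2A, POLR2B and POLR3GL were lost. Scaled to the fragments in genes, 5 members were not called and 0 higher passed both thresholds. The median was −0.96 for polymerase I alone and −0.0737 for polymerases I and III, with POLR1C at −0.00604 and POLR2E at −0.0458. With library medians made equal, 1 lower member passed both thresholds. The median was −0.81 for polymerase I alone, 0.0701 for polymerases I and III and 0.00412 for polymerase II alone, and the signs of POLR1D (0.0041), POLR2C (0.0271) and POLR2G (0.00412) turned. Without mitochondrial genes, TPM gave a median of −0.96 for polymerase I alone and −0.0228 for polymerases I and III. In that setting the median of all genes was −0.05, and all 32 members kept their direction and their side of the threshold. By voom on recovered fragments, 5 members were not called, and 5 lower and 0 higher passed both thresholds. Its medians were −0.43 for all members, −1.04 for polymerase I alone and −0.0817 for polymerases I and III, with POLR1C at −0.00606 and POLR2E at −0.0465. A pseudocount of 0.1 gave −0.94 for polymerase I alone. The cause was not tested.

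With each replicate left out in turn, 18 to 21 members were lower, 4 to 5 higher and 7 to 10 not called. Those past both thresholds numbered 1 to 2 lower, with 1 (POLR3G) left without ARV-825 replicate 1, without ARV-825 replicate 3 or without DMSO replicate 2, and 0 to 1 higher, with 0 without ARV-825 replicate 1. The median log2 fold change for polymerases I and III ran from −0.0295 to 0.0363, that of POLR2E from −0.0161 (without ARV-825 replicate 1) to 0.0837, and that of POLR2C from −0.114 to 0.00795 (without ARV-825 replicate 3). Deviations from the group means correlated at 0.0042, 0.0414 and 0.0378 for libraries with the same replicate number. For libraries with different numbers they correlated at −0.0402 to 0.0016. With 3 libraries per group, these values cannot decide whether replicate numbers pair the samples. With the replicate block, all 32 members kept their call, with 5279 of all genes lower and 4870 higher. Depth limits POLR1G with ARV-825 (21 to 28 fragments) and the POLR2J copies.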
